A study of Mus musculus with 7 samples.

Results

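CD8 dendritic cells sorted for a high surface level of CD103 after CpG treatment were compared, gene by gene, with untreated CD8 dendritic cells sorted as CD103 negative. All cells came from C57BL/6 mice and were isolated by flow cytometry before total RNA was taken. The members were chosen by their labels: 2 libraries of CpG CD103 high cells and 3 of CD103 negative cells, 5 of the 7 libraries in the series. The other 2 libraries, of untreated CD103 low cells, entered the model only as a source of spread. Both CpG CD103 high libraries and CD103 negative replicates 1 and 2 carried a date in 2012, while CD103 negative replicate 3 was dated 2013, so the date-matched contrast of 2 against 2 libraries is given first. Treatment and CD103 level changed together, and an effect of CpG cannot be told apart from a property of CD103 high cells. The kind of CpG, its dose, the time after it and the organ were not given in the sources used here, and the design text calls the samples biological replicates.

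CD8 dendritic cells are the lymphoid form of type 1 conventional dendritic cells, which take up dying cells and present their antigens on MHC class I to CD8 T cells. CpG is DNA with unmethylated CG motifs, which the endosomal receptor TLR9 detects through the adaptor MyD88 and which leads to cytokine and interferon production. CD103 is the integrin αE chain, which pairs with β7 and binds E-cadherin. After a strong systemic stimulus dendritic cells can pass through activation and then respond poorly to a further one, the state that the title of the series calls paralysed.

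Library totals lay between 4474211 and 4629181 counts. Levels are given as CPM, counts divided by the scaled library size in units of 1000000. A count of 0 allows up to 3 counts, or 0.648 to 0.671 CPM, counting error only. The libraries are called CpG 1 and CpG 2, for CpG CD103 high cells, and negative 1, negative 2 and negative 3, for CD103 negative cells, and values follow in that order unless a gene is said to rise or fall from the negative values to the CpG values. Differences are log2 fold changes of CpG CD103 high over negative 1 and negative 2, with a standard error (SE), from edgeR's quasi-likelihood test. A gene counts as called where its p, adjusted by Benjamini and Hochberg over the 10863 genes tested, is under 0.05. CD103 low 1 and CD103 low 2 are the untreated libraries of the third sort. Beside a group's counts stand those under another control, without 1 library or after a length correction wherever they differ by more than 1.5 times.

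Itgae RNA followed the sort. Itgae, the CD103 gene (chromosome 11, 73090505 to 73147449), stood at 1019 and 992 CPM against 61.7, 62.7 and 54.3, and Cd8a, the CD8α chain, at 1370.4 and 1280.2 against 1459, 1484 and 1207. The Itgae values do not overlap and those of Cd8a do, but both genes served the sort and check the labels only. Of 20 genes that mark type 1 conventional dendritic cells, 12 were called higher and 1 lower (0 lower without CpG 2 or negative 1). The list holds Itgae, 1 of these called higher, and Cd8a. Without both, 11 of 18 were called higher and 1 lower, and the summed level was 30746 and 30749 CPM against 22027, 23079 and 22273. Markers of other cell types were low next to these but differed in sum. The 14 erythroid and platelet markers summed to 94.3 and 73.96 CPM against 8.34, 8.41 and 9.58, with 9 of 10 tested members called higher. The 13 neutrophil markers summed to 27.7 and 19.7 against 0.439, 4.31 and 0.851, and Mmp8 and Mmp9 had no count in these 5 libraries. B cell and plasma cell markers summed to 83.2 and 86.5 against 172, 146 and 151, and Fcrla, chosen after its values were seen, held 70.5 and 72.2 against 74.9, 67.5 and 60.9 of these sums. Macrophage and monocyte markers summed to 711 and 679 against 1035, 902 and 1064, and Treml4 and Cd68, chosen likewise, held 302 and 344 against 413, 371 and 391 and 204 and 204 against 277, 253 and 278 of them. Markers of the second conventional subset summed to 288 and 251 against 326, 309 and 418, of which Clec12a, chosen likewise, held 231 and 205 against 211, 209 and 228. Plasmacytoid dendritic cell markers summed to 293 and 241 against 236, 235 and 372. Fewer cells of a type and less RNA per cell cannot be told apart in such bulk samples, and the part of these cells in other results was not tested.

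The date-matched contrast covered a large share of the transcriptome. Of 10863 genes, 2860 (26.3%) were called, 1576 of them higher (14.5%) and 1284 lower (11.8%). These shares are the background for every count of list members below. The total was 1738 without negative 1, 1837 without negative 2 and 1849 without CpG 2, with the lone library of a group assumed to vary like the others. Most changes were moderate: the median log2 fold change was 0.69 among genes called higher and -0.67 among those called lower, and over all tested genes it was -0.0070. At least 4-fold changes were seen in 133 genes called higher and 112 called lower, and at least 16-fold changes in 19 and 14. Genes called higher held 26.5% and 27.2% of all counts in the CpG libraries against 18.2%, 18.9% and 20.6% in CD103 negative cells, and genes called lower held 11.3% and 11.2% against 17.1%, 16.8% and 15.3%. For 4158 genes (38.3%) the 95% interval of the fold change lay within 1.5-fold in either direction.

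**Figure D1:**
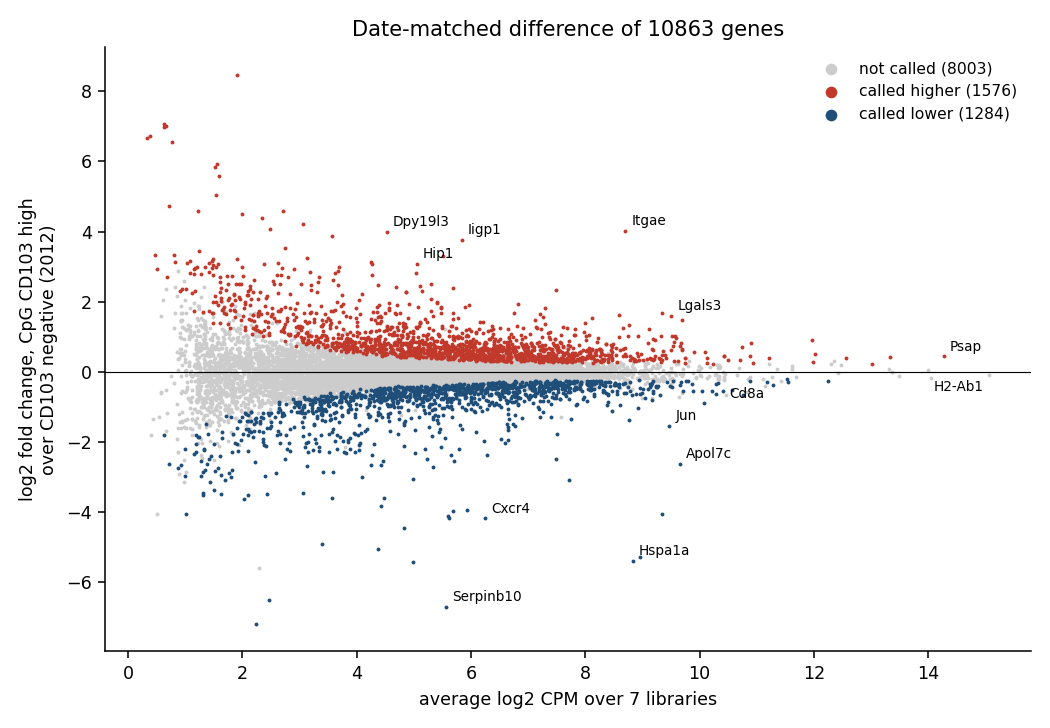
Log2 fold change of CpG CD103 high over CD103 negative cells of the same date (vertical axis) against average log2 CPM over 7 libraries (horizontal axis) for 10863 genes, each point 1 gene, coloured by call. Of the labelled genes Itgae lies at 4.01 and Serpinb10 at -6.71, while abundant genes on the right, such as Psap at 0.43, lie near 0.

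Negative 3, of the other date, was not used by the date-matched fit as a control and bears on each call. With all 3 CD103 negative libraries as the control and no date term, called against all negatives below, 837 genes were called higher (7.71%) and 752 lower (6.92%), and 1565 of these 1589 genes were called in the same direction in the date-matched contrast and 0 in the opposite one. This total was 514 without CpG 1, 620 without CpG 2 and, with negative 3 left out, 2861. CPM of both CpG libraries lay above all 3 CD103 negative libraries for 2387 genes (22%) and below all 3 for 2469 (22.7%), a count that takes in genes with no call. Of the 2860 called genes, 2351 (82.2%) had no such overlap. In another 320, negative 3 lay between the CpG libraries, and in 189 it lay beyond them.

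Length moved with the contrast. Genes called higher had a median length of 3632 bases in the files' gene models and genes called lower 2301, against 2820 for all tested genes. In the shortest of 4 equal length classes (median 1214 bases) 196 were called higher and 468 lower, with a median log2 fold change of -0.17, and in the longest class (median 5646 bases) 621 were called higher and 227 lower, with a median of 0.14. After a correction for GC content and length, chosen after seeing the data, these counts were 281 and 213 in the shortest class and 383 and 327 in the longest. The correction left 2480 genes called.

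**Figure D2:**
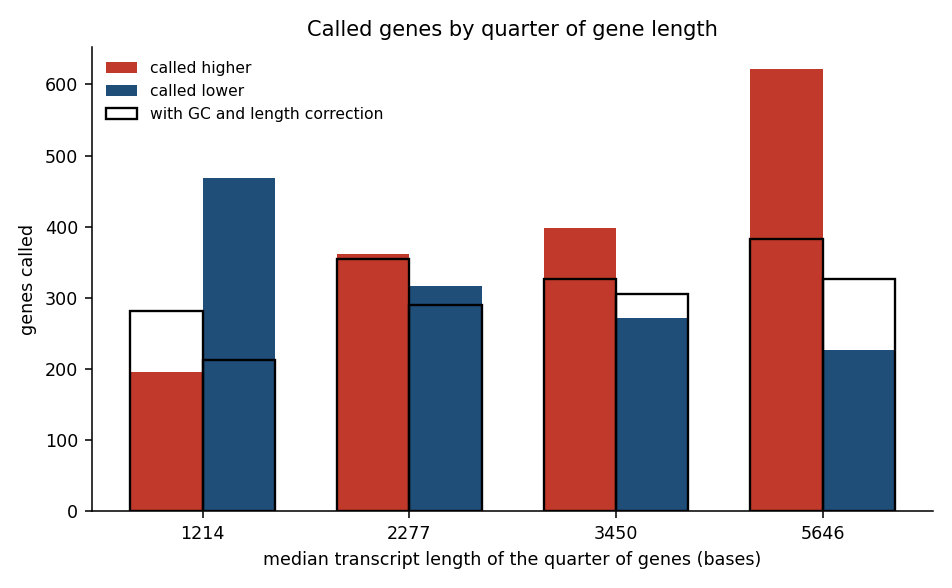
Number of genes called higher (red) and lower (blue) in CpG CD103 high cells in 4 equal classes of gene length (horizontal axis, median length in bases). Black outlines give the counts after correction for GC content and length, which fell from 621 to 383 higher calls in the longest class.

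The genes of largest rise had varied roles. Hip1, a clathrin and actin adaptor of endocytosis, stood at 86.1 and 82.5 CPM against 8.34, 11.6 and 13.2, and Ppef2, a calcium-binding phosphatase, at 56.6 and 63.2 against 8.12, 8.84 and 30.2. All CpG CD103 high values of both genes lay above all others, although negative 3 held more Ppef2 than negative 1 and negative 2. Their log2 fold changes were 3.07 (SE 0.16, adjusted p 4.06e-06) and 2.82 (SE 0.15, adjusted p 4.73e-06), and with all negatives as the control 2.92 and 1.92. Mapk13, the p38δ stress kinase, rose from 7.9, 7.55 and 8.09 to 38.6 and 47.96 CPM (2.48, SE 0.22), close to the same level in each CD103 negative library. Lilrb4a, an inhibitory receptor with a close copy in Lilr4b, rose by 2.75 (SE 0.37), from 7.25, 3.02 and 12.8 to 24.4 and 44.6 CPM. Its rise was 3.50 without negative 1 and 2.24 without CpG 2. Nlrp1b, a sensor that opens the inflammasome, rose by 2.39 (SE 0.26), but its 51.7 CPM in negative 3 came near the 59.5 and 106 of the CpG libraries, and against all negatives its call was lost at 1.57.

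Several falls ended near absence. Gp2, a receptor for fimbriated bacteria on M cells, stood at 1.11 and 3.59 CPM against 45.5, 39.7 and 48.7, and Mefv, which encodes the inflammasome protein pyrin, at 2.44 and 3.59 against 58.4, 46.99 and 80.2. Cd207, the lectin langerin, stood at 4.44 and 3.81 CPM against 65.9, 61.01 and 59.4. In these 3 genes every CpG CD103 high value lay more than 10-fold below every CD103 negative value, and the log2 fold changes were -4.17 (SE 0.38), -4.12 (SE 0.25) and -3.93 (SE 0.21), with adjusted p of 9.33e-05, 8.19e-06 and 4.73e-06. For Gp2 the value was -3.56 without CpG 1 and -5.24 without CpG 2. The neighbouring genes Tmem176a and Tmem176b, which encode membrane proteins of endosomes, fell from 44.6, 44.6 and 52.6 and from 97.05, 65.5 and 88.5 CPM to 5.77 and 4.93 and 3.99 and 6.28. H2-M2, a non-classical class I gene, fell from 34.03, 27.4 and 32.8 to 1.33 and 2.91 CPM (-3.84, SE 0.28, -3.39 without CpG 1 and -4.51 without CpG 2). Clec4b2, a C-type lectin receptor, fell from 28.5, 15.7 and 36.4 to 0.666 and 2.91 (-3.61, SE 0.46, -2.91 without CpG 1 and -5.01 without CpG 2). Cxcr4, the receptor for the homing chemokine CXCL12, stood at 10.4 and 7.62 CPM against 272, 57.8 and 51.7. Negative 1 stood far above the others here, and without it the log2 fold change of Cxcr4 was -2.68 in place of -4.19, still called, and -4.91 without negative 2.

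A few genes were nearly silent on one side. Pcsk5, a protease that matures secreted precursors, had 2 and 1 counts in CpG CD103 high libraries and 55, 46 and 78 in CD103 negative ones. The summed counts of the 2012 libraries, 3 and 101, give a ratio of CD103 negative over CpG CD103 high of 33.7 with a counting interval of 11.2 to 166. Conversely Ppargc1b, a coactivator of mitochondrial and lipid genes, had 43 and 32 counts in CpG CD103 high libraries and 0, 1 and 2 in CD103 negative ones. Its ratio of CD103 negative over CpG CD103 high, from 1 and 75 summed counts of 2012, was 0.0134 with a counting interval of 0.000334 to 0.0767. Both genes were called. Hbb-b1 and Slc4a1, erythroid markers counted above, were likewise nearly silent in CD103 negative cells. They had 58 and 50 counts against 3, 2 and 2, and 51 and 37 against 0, 0 and 3.

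**Figure D3:**
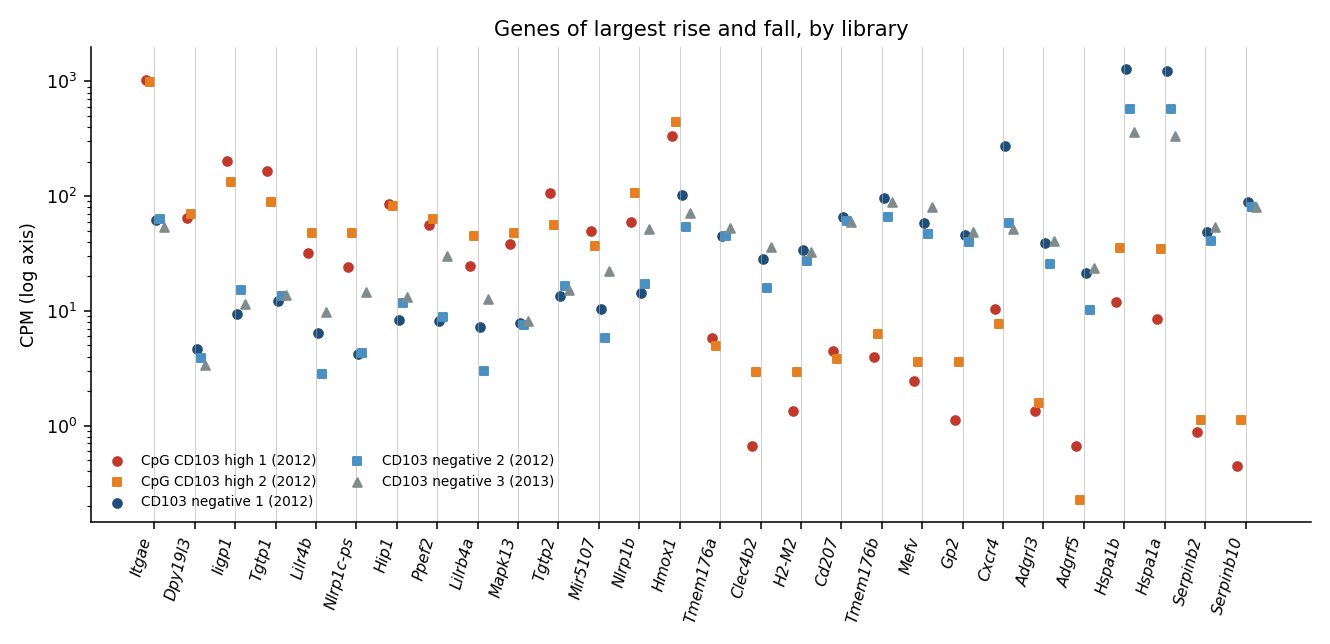
CPM (log axis) of the 14 genes of largest rise, on the left, and the 14 of largest fall, on the right, among called genes whose average log2 CPM reached 4. Each symbol is 1 library, and the red and orange CpG CD103 high symbols overlap none of the blue and grey CD103 negative symbols of the same gene, which is how these genes were chosen.

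By absolute amount, the rises were led by lysosomal and secreted proteins. Psap, the precursor of the saposins that help break down sphingolipids, stood at 23729.5 and 24055 CPM against 17330.5, 18016 and 16255, and Gm2a, the GM2 ganglioside activator, at 7624 and 7577 against 6085, 5532 and 4127. The groups did not overlap for either gene, at log2 fold changes of 0.43 (SE 0.06) and 0.39 (SE 0.07). Naaa, a lysosomal amidase of fatty acid amides, rose from 2915, 3379.96 and 2732 to 5852 and 5878 CPM (0.90, SE 0.09), and Dnase1l3, a secreted DNase that digests chromatin of dead cells, from 3481, 3161 and 3128 to 4993 and 4346 (0.49, SE 0.09). Adam8, a membrane metalloprotease, rose from 485, 493 and 602 to 1318 and 1417 (1.48, SE 0.08). Among the falls in amount was Pabpc1, the poly(A)-binding protein, from 2094, 2011 and 1762 to 1301 and 1279 CPM (-0.67, SE 0.07).

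Interferon-inducible GTPases rose in nearly every tested member. Immunity-related GTPases (IRGs) coat and break the vacuoles of intracellular parasites, and all 12 tested members were called higher, with a median log2 fold change of 2.17. All were called again against the 3 CD103 negative libraries, and 10 to 11 when each 2012 library was left out in turn. Guanylate-binding proteins (GBPs) attack the same vacuoles. Of 9 tested genes in the GBP list, which also counts the very large inducible GTPase Gvin1, 8 were called higher, Gvin1 among them, and 0 lower, with a median of 1.14 (5 higher against all negatives). Gm4951, an IRG, stood at 20.2 and 17.5 CPM against 0.439, 1.08 and 1.06 (4.58, SE 0.37, 4.09 without negative 1 and 5.34 without negative 2). Irgm1, a regulator of the other IRGs, stood at 253 and 174 against 57.1, 77.2 and 60.4 (1.67, SE 0.18). Among GBPs, Gbp2b rose from 1.98, 2.59 and 1.92 to 34.6 and 33.4 CPM (3.88, SE 0.25, adjusted p 1.53e-05), with no overlap. Gbp8 stood at 23.1 and 31.4 CPM against 9.44, 7.11 and 28.3, so that negative 3 lay between the CpG libraries and the call was lost against all negatives. CpG 1 exceeded CpG 2 in Iigp1, Tgtp1, Tgtp2, Irgm1 and Igtp. Igtp, named after its values were seen, stood at 90.1 and 45.9 CPM against 23.3, 27.8 and 21.1, and its log2 fold change of 1.41 was 0.84 without CpG 1, still called. Tgtp1 with Tgtp2 and Gm12185 are near copies of one another, and how reads were split between them is uncertain.

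Promoter letters of these families are shown because the members rose together. RefSeq's table for build GRCm38.p6 held promoters of 9 of the 12 tested IRGs, all on chromosome 11, and of 5 of the 9 tested genes in the GBP list, all on chromosome 3. The 250 bases before each start were searched on both strands for the core of the interferon-stimulated response element, GAAANNGAAA, bound by STAT and IRF proteins, and for the gamma-activated site, TTCNNNGAA, bound by STAT pairs. The first motif was present in 7 of the 9 IRGs and in 5 of the 5 GBPs, against 3.39% of the 8576 tested genes with a promoter in the table. The second was present in 6 of the 9 and in 2 of the 5, against 7.07%. In Irgm2, Igtp, Tgtp1, Tgtp2 and Gm12185 the gamma-activated site began 11 bases before the response element, which lay on the strand of the gene. The pattern of the gamma-activated site reads the same on both strands. These 5 are printed below as the 120 bases before the start, 5′ to 3′, with Gbp2 and Gbp7, where the response element lies on the other strand, and with Isg15, an antiviral gene that holds the motif and was not called. Capitals mark both motifs, and matches of the first overlap one another in Isg15.
Irgm2 (chr11:58214857-58214976, plus strand): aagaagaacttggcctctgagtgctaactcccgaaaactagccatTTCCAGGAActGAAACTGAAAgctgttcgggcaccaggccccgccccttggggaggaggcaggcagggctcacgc
Igtp (chr11:58199436-58199555, plus strand): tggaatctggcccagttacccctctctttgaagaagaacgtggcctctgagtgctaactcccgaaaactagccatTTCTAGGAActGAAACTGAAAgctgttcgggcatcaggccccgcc
Tgtp1 (chr11:48992247-48992366, minus strand): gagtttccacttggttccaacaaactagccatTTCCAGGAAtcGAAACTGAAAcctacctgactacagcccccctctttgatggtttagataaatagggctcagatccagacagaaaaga
Tgtp2 (chr11:49064213-49064332, minus strand): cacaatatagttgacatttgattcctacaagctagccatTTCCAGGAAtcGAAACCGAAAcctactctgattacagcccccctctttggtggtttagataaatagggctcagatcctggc
Gm12185 (chr11:48927183-48927302, minus strand): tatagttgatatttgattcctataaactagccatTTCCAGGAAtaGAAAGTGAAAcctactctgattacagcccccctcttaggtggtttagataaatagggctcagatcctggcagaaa
Gbp2 (chr3:142620543-142620662, plus strand): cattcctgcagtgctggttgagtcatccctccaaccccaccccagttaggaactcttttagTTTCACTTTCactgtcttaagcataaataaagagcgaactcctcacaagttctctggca
Gbp7 (chr3:142530216-142530335, plus strand): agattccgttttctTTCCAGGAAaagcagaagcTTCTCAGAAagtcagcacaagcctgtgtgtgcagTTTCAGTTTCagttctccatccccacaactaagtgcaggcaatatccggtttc
Isg15 (chr4:156200819-156200938, minus strand): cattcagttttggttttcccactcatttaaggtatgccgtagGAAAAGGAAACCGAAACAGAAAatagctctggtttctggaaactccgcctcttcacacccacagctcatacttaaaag
A match describes letters only. Of 34 tested antiviral effectors 27 had a promoter in the table, and 8 of these (29.6%) held the response element. None of those 8, Isg15 among them, was called, and 6 of the 19 without a match were called higher and 2 lower, beside 26.3% of all genes called. These sets are small, and a link between the motif and a call was not tested.

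Antiviral effectors block viral replication directly. Of 34 tested, 9 were called higher and 2 lower, beside 26.3% of all genes called (median 0.21, 5 lower without negative 1). Oasl1, an inhibitor of IRF7 translation, rose from 10.98, 17.7 and 10.2 to 47.5 and 54.2 CPM (1.82, SE 0.20), and Samhd1, which depletes nucleotides for viral DNA synthesis, from 680.01, 683 and 765 to 1151 and 996 (0.66, SE 0.09). Ifitm3, which hinders entry of viruses from endosomes, was lower, at 7.99 and 7.62 CPM against 18.7, 18.5 and 73.6 (-1.25, SE 0.18), with negative 3 high above the other libraries. Classical interferon targets did not all move alike. Mx1 and Oasl2 were called higher, Oasl2 with a log2 fold change of 1.45, while Mx1 lost its call against all negatives. Others, chosen after their values were seen, did not pass the test. Isg15 stood at 11.3 and 11.9 CPM against 9.22, 15.5 and 5.11 (95% interval of the log2 fold change -0.74 to 0.55), Ifit2 at 16.2 and 12.3 against 15.6, 19.6 and 14.7 (-0.75 to 0.14) and Usp18 at 25.96 and 26.2 against 26.3, 32.3 and 22.6 (-0.53 to 0.19). In each the groups overlapped, and the intervals exclude a rise of the size seen in Gbp2b. Cxcl10, a chemokine induced by interferons, stood at 18.4 and 13.9 CPM against 19.98, 15.5 and 12.98 (-0.58 to 0.31), likewise overlapping.

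**Figure D4:**
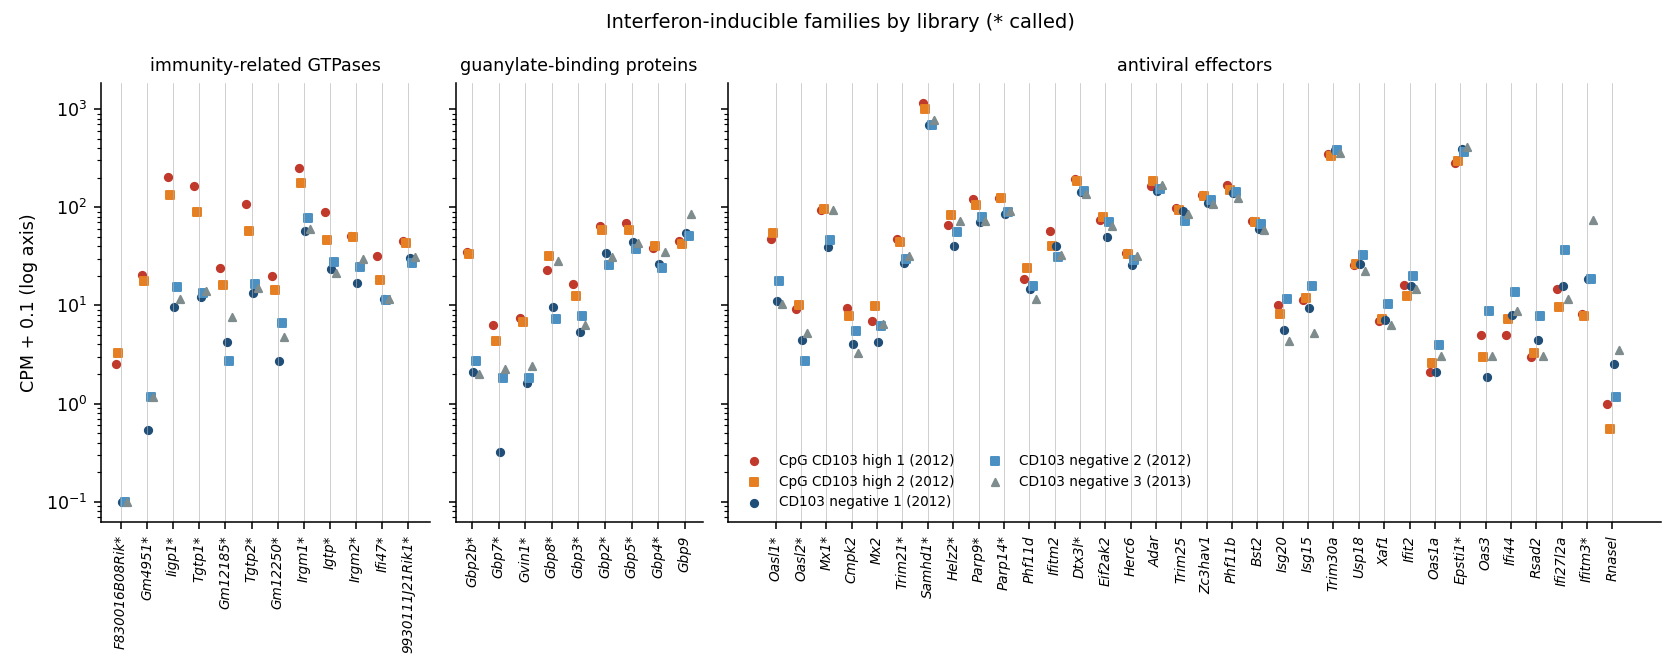
CPM with 0.1 added (log axis) of each tested immunity-related GTPase, guanylate-binding protein (with Gvin1 counted among them) and antiviral effector, ordered by log2 fold change within its panel, 1 symbol per library. An asterisk marks called genes: 12 of 12, 8 of 9 and 11 of 34.

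Interferon signalling genes were more often higher than lower. Of 22 tested receptors, Janus kinases, STATs and IRFs 10 were called higher and 1 lower, beside 14.5% and 11.8% of all genes (median 0.21). Stat2, which carries the type I interferon signal, rose from 55.3, 103 and 126 to 213 and 231 CPM (1.48, SE 0.21). Irf1 rose from 158, 171 and 191 to 315 and 285 (0.87, SE 0.09) and Irf7, the amplifier of interferon production, named after its values were seen, from 126, 172 and 138 to 321 and 289.8 (1.03, SE 0.15). For all 3 genes the CpG CD103 high values lay above every CD103 negative value. Irf4, a factor of the second conventional subset, was the one member called lower, at 1.33 and 1.34 CPM against 5.27, 4.31 and 14.05 (-1.82, SE 0.38). Among 13 genes of the SLFN, GIMAP and IFI200 families, several of them interferon-inducible, 3 were called higher and 4 lower (1 higher without CpG 1 or negative 1, 1 higher against all negatives). The IFI200 gene Ifi209 fell from 136, 127 and 123 to 30.8 and 32.7 CPM (-2.05, SE 0.10, adjusted p 3.26e-06), Ifi203 by 2.23 (SE 0.25) and Mndal by 1.64 (SE 0.18) on the log2 scale, while Aim2, which senses DNA in the cytosol, stood at 102 and 113 CPM against 73.6, 74.2 and 116, a call (0.54, SE 0.10) that was lost against all negatives.

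Receptors and adaptors for microbial products were more often higher than lower. Of 17 Toll-like receptors and chaperones 6 were called higher and 1 lower, beside 14.5% and 11.8% of all genes (3 higher against all negatives, 2 lower after the length correction). Tlr12, a receptor for profilin of Toxoplasma, rose from 189, 191 and 145 to 273 and 279.7 CPM (0.54, SE 0.08), while Tlr2, a receptor for lipoproteins, fell from 54.5, 44.8 and 49.6 to 28.4 and 29.6 (-0.78, SE 0.15). Tlr9, the receptor for CpG DNA, chosen after its values were seen, stood at 168 and 185 CPM against 125, 141 and 180.3. Its CpG CD103 high values overlap with negative 3, and its call (0.41, SE 0.11) was lost without CpG 2, without negative 1 (0.33 and 0.33) and against all negatives, and after the length correction. Among 19 adaptors and kinases 6 were called higher and 1 lower (2 to 3 higher with 1 of the 2012 libraries left out, 3 higher against all negatives, 3 higher after the length correction, 0 lower without CpG 2 or negative 2). In the list of cytosolic sensors and inflammasome genes 9 of 29 were called higher and 5 lower (4 higher against all negatives, 1 to 3 lower with 1 of the 2012 libraries left out, 2 lower without CD103 low 2, 3 lower without CD103 low 1, 2 lower against all negatives, 2 lower after the length correction). Nlrp3, the inflammasome sensor of many danger signals, rose from 35.4, 39.2 and 44.3 to 69.7 and 63.6 CPM (0.84, SE 0.14). Chuk, the IKKα kinase, rose from 88.9, 88.2 and 133 to 204 and 213 (1.24, SE 0.09) and Myd88 from 113, 112 and 105 to 175 and 151 (0.53, SE 0.10). Of 22 brakes on this signalling 7 were called higher and 2 lower (0 to 4 lower with 1 of the 2012 libraries left out, 0 lower against all negatives). Higher were Trafd1, a feedback inhibitor (286, 296 and 308 to 461 and 486 CPM, 0.70, SE 0.08), and the phosphatase gene Ptpn22 (0.64, SE 0.09). Nfkb2, the p100 subunit of the non-canonical NF-κB pathway, fell from 254, 224 and 240.1 to 178 and 167 CPM (-0.47, SE 0.09). Of 12 tested genes of the SOCS and CIS list of cytokine signal inhibitors 2 were called higher and 1 lower, beside 26.3% of all genes called. Socs2, the one called lower, fell from 38.9, 34.7 and 26.6 to 9.54 and 13.2 (-1.69, SE 0.22). Socs1 was called higher, with log2 fold changes of 1.62 to 2.19 over 17 alternative fits, as was Ptpn1.

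Of the antigen presentation genes, class I loading genes were more often called higher than lower. Of 27 tested genes of class I peptide loading and the proteasome 10 were called higher and 2 lower, beside 14.5% and 11.8% of all genes (median 0.22, 0 lower without negative 2, 1 lower without CD103 low 1, CD103 low 2, CpG 2 or negative 1, 1 lower against all negatives). Tap2, 1 of the 2 chains of the peptide transporter, rose from 262, 269.7 and 238 to 408 and 409.7 CPM (0.62, SE 0.08) and the classical class I gene H2-K1 from 1535, 1616 and 1659.7 to 2176 and 2093 (0.44, SE 0.07). Class II heavy and light chains were among the abundant genes that differed least: H2-Ab1 stood at 15784 and 15295 CPM against 15696, 14293 and 14482 (95% interval -0.11 to 0.21), H2-Aa at 10525 and 9286 against 10796, 9174 and 9929 (-0.22 to 0.19) and H2-Eb1 at 10947 and 10524 against 10924, 9468 and 8227 (-0.10 to 0.25). Their groups overlapped, and each interval lay within 0.25 of no change, as it did for 216 genes in all. Ctss, the protease that trims the invariant chain, and Psmb8, an immunoproteasome subunit, were of the same kind (-0.20 to 0.15 and -0.24 to 0.14). Of 17 class II and loading genes 4 were called higher and 2 lower (1 to 2 higher with 1 of the 2012 libraries left out, 2 higher without CD103 low 1 or CD103 low 2, 2 higher against all negatives). H2-Eb2 fell by 0.77 (SE 0.15) and Cd1d1, which presents lipids, by 0.91 (SE 0.12), from 93.3, 84.9 and 112 to 42.8 and 51.8 CPM.

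Lysosomal genes moved both ways. Among 19 proteases and inhibitors 5 were called higher and 4 lower, beside 14.5% and 11.8% of all genes (3 higher against all negatives, 2 lower without negative 1). Ctsa, cathepsin A, stood at 192 and 189 CPM against 113, 100.5 and 147 (0.83, SE 0.10) and Ctsh, cathepsin H, at 252 and 224 against 406, 334 and 352 (-0.63, SE 0.11). In the list of the proton pump and lysosome 7 of 23 genes were called higher and 2 lower (3 higher without CpG 1 or negative 2, 4 higher without CD103 low 1, CD103 low 2 or negative 1, 4 higher against all negatives, 0 lower without negative 1, 1 lower without CpG 2, 1 lower against all negatives). Tcirg1, a pump subunit of the membrane sector, stood at 183 and 271 CPM against 65.7, 61.9 and 163 (1.83, SE 0.17), a rise that rests on negative 1 and negative 2 and was not called against all negatives (1.23). Atp6v0a2, another form of that subunit, rose from 212, 239 and 245 to 421 and 382 (0.83, SE 0.09). Cross-presentation genes gave 6 higher and 4 lower of 29 (3 higher without negative 1, 2 higher against all negatives, 1 lower without negative 1). Clec9a, a receptor for actin of dead cells, stood at 968 and 964 CPM against 586, 565 and 722 (0.75, SE 0.08).

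Surface receptors of inhibitory type changed in opposite directions. Of 21 immunoglobulin-like receptors and related genes 10 were called higher and 6 lower, beside 26.3% of all genes called (6 higher without negative 2). These counts are not limited to inhibitory receptors, since they take in Cd47 and Cd300c2, called higher, and Fcer1g, Cd300c and Cd200, called lower. Btla, named like Vsir after its values were seen, rose from 539, 547 and 607 to 768 and 755 CPM (0.49, SE 0.08) and Vsir, which encodes VISTA, from 245, 217 and 235 to 372 and 298 (0.54, SE 0.11), a call lost without negative 2 (0.45). Fcgr2b, the inhibitory receptor for IgG, fell from 92.7, 77.8 and 87.7 to 40.4 and 41.2 (-1.06, SE 0.12) and Cd300a from 58.4, 46.6 and 62.4 to 16.9 and 21.5 (-1.45, SE 0.17). None of these groups overlapped. Costimulatory and coinhibitory ligands of T cells did not follow one direction, with 6 of 15 called higher and 2 lower, beside 26.3% of all genes called (3 higher without negative 2, 1 lower without CpG 2 or negative 1, 4 lower without negative 2). Over 17 alternative fits the log2 fold change of Cd274, a coinhibitory ligand, was 1.13 to 1.41 and that of Icosl -0.84 to -0.61. Cd24a rose from 476, 501 and 465 to 812 and 723 CPM (0.65, SE 0.09). The maturation markers Cd86 and Cd40, chosen after their values were seen, stood at 521 and 483 against 517, 476 and 442 (95% interval -0.18 to 0.21) and at 61.9 and 54.7 against 56.6, 64.7 and 50.02 (-0.35 to 0.23), with overlapping groups. Cd80, chosen likewise, stood at 25.3 and 25.997 against 39.96, 30.4 and 38.1 (-0.81 to -0.10), not called although its groups did not overlap. Fscn1, an actin bundler of mature dendritic cells, fell from 279.5, 242 and 233 to 69.2 and 84.04 CPM (-1.77, SE 0.14), and Ccr7, the receptor that leads them to T cell zones and was chosen after its values were seen, from 396, 229 and 229 to 129.8 and 118 (-1.34, SE 0.21).

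Chemokine, lipid mediator and cytokine receptors were redistributed. Of 26 receptors for chemokines and lipids 6 were called higher and 9 lower, beside 14.5% and 11.8% of all genes (median -0.42, 5 lower without negative 1). Cxcr3, the receptor for interferon-induced chemokines, rose from 75.1, 76.7 and 77.5 to 137 and 157 CPM (0.96, SE 0.10), while Ccr2, the receptor that draws monocytes out of bone marrow, fell from 60.2, 65.97 and 73.9 to 24.6 and 23.8 (-1.38, SE 0.15). Among chemokines and cytokines 7 of 23 were called lower and 2 higher (0 higher without CpG 1 or negative 2, 1 higher without CD103 low 1 or CD103 low 2, 1 higher against all negatives, 4 lower without CpG 2 or negative 1). Ccl22, which attracts regulatory T cells, fell from 149.97, 90.8 and 98.97 to 22.9 and 40.3 (-1.93, SE 0.26). Il12b, the p40 chain of IL-12, named after its values were seen, stood at 65.4 and 71.9 CPM against 70.5, 35.8 and 41.9 and was not called. The receptors for IL-4 and GM-CSF were higher: Il4ra rose from 98.1, 97.9 and 93.2 to 309.7 and 266 CPM (1.55, SE 0.11, adjusted p 2.03e-05) and Csf2ra from 269, 262 and 410.1 to 483 and 596 (1.02, SE 0.11). The other receptor chain for IL-4 and IL-13, Il13ra1, fell from 84.97, 56.05 and 67.3 to 13.5 and 13.4 (-2.38, SE 0.21), and Tnfrsf1b, TNF receptor 2, from 134, 115 and 139 to 47.3 and 49.8 (-1.36, SE 0.11). In all, 7 of 31 cytokine receptors were called higher and 8 lower (4 higher against all negatives).

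Adhesion and cytoskeleton genes were lower more often than higher. Cd44, the hyaluronan receptor, stood at 348 and 372 CPM against 669, 554 and 551 (-0.76, SE 0.10). Itgb7, the partner chain of CD103, chosen after its values were seen, rose from 261, 259 and 242 to 345 and 333 (0.39, SE 0.08). In the integrin and adhesion list 5 of 27 were called higher and 8 lower, beside 14.5% and 11.8% of all genes (3 higher without CD103 low 1, CD103 low 2, CpG 1, CpG 2 or negative 1, 5 lower without negative 1 or negative 2). Of 28 tetraspanins and membrane organisers 12 were called lower and 5 higher (2 higher without CpG 2 or negative 2, 3 higher without negative 1, 3 higher against all negatives). Cd81 stood at 261 and 246 CPM against 577, 457 and 568 (-1.03, SE 0.11) and Ms4a6c at 17.5 and 15.7 against 61.04, 58.2 and 58.7 (-1.84, SE 0.14). Of 44 genes of actin and migration 13 were called lower and 5 higher (3 higher without CpG 2 or negative 1, 3 higher against all negatives, 3 higher after the length correction, 8 lower without CpG 2, 6 lower against all negatives). Coro1a, which organises actin below the membrane, fell from 1404, 1357 and 1168 to 927 and 957 CPM (-0.55, SE 0.07). Clade B serpins, inhibitors of intracellular proteases, included the steepest fall of the contrast among abundant genes, yet Serpinb6b, another member, rose from 299, 279.8 and 236 to 609 and 544 CPM (0.99, SE 0.09). Serpinb8, which neighbours Serpinb10 and Serpinb2 on chromosome 1, fell from 78.8, 64.7 and 67.9 to 20.9 and 25.3 (-1.63, SE 0.15).

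Of the factors that specify the subset, 2 rose and 1 was not called. Batf3, Irf8 and Id2 specify type 1 conventional dendritic cells and were chosen after their values were seen. Batf3 stood at 71.4 and 69.9 CPM against 67.2, 73.3 and 67.5 (95% interval -0.22 to 0.24, not called), and Irf8 rose from 2296, 2374 and 1816 to 3175 and 2933 (0.39, SE 0.08). Id2 stood at 939 and 861 against 774, 688 and 588 (0.30, SE 0.09), a call lost without CpG 1, CpG 2 or negative 2 (0.24, 0.35 and 0.22), without either CD103 low library and against all negatives. Zbtb46, a marker of conventional dendritic cells, rose from 94.9, 82.995 and 90.2 to 144 and 145 (0.70, SE 0.10), and Ikzf2, which encodes Helios, from 0, 0.647 and 2.34 to 9.32 and 6.72 CPM, with 0 and 3 counts in negative 1 and negative 2. Of 46 factors in the list 11 were called higher and 6 lower (7 higher after the length correction), among the latter Tcf4, the factor of plasmacytoid dendritic cells (11.98 and 14.3 against 29.2, 36.2 and 64.1 CPM, -1.31, SE 0.20).

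Notch and Wnt genes were among the lists with the most higher calls. Of 26 tested 11 were called higher and 3 lower, beside 14.5% and 11.8% of all genes (median 0.33, 0.16 after the length correction, 7 higher against all negatives). The ligand gene Jag2 rose from 13.2, 22.4 and 20.9 to 61.7 and 67.9 CPM (1.86, SE 0.20) and the receptor gene Notch4 from 159, 187 and 215 to 322 and 378 (1.01, SE 0.12), while the other ligand Jag1 fell from 15.8, 17.5 and 18.9 to 5.32 and 3.14 (-1.97, SE 0.30) and the Notch target Hes1 from 31.8, 20.5 and 22.3 to 10.2 and 9.64 (-1.39, SE 0.23). TGF-β and retinoic acid genes gave 9 higher and 1 lower of 27 (3 higher without negative 2, 5 higher without CpG 1, 2 lower after the length correction). Tgfb3, a TGF-β ligand, rose from 0.439, 1.51 and 1.06 to 10.6 and 7.84 CPM (3.20, SE 0.48, 2.59 without negative 1 and 4.31 without negative 2), and Smad7, an inhibitor of the pathway, fell from 36.4, 23.3 and 22.1 to 11.98 and 12.6 (-1.28, SE 0.22). Ion channels and calcium handling held 17 higher and 2 lower calls among 39 genes (median 0.35, 0.17 after the length correction, 1 lower without CD103 low 1, CD103 low 2 or negative 1, 1 lower against all negatives, 5 lower after the length correction). Trpm2, a calcium channel opened by oxidative stress, stood at 659.8 and 803 CPM against 316, 313 and 527 (1.22, SE 0.10), Atp2a3, a calcium pump of the endoplasmic reticulum, at 154 and 186 against 79.05, 81.9 and 62.6 (1.08, SE 0.11) and Trpv2, another cation channel, at 210.3 and 202 against 125, 118 and 117 (0.76, SE 0.09).

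Stress and immediate early genes varied between the CD103 negative libraries. Of 27 heat-shock chaperones 13 were called lower and 0 higher, beside 11.8% and 14.5% of all genes (median -0.36), and 9 to 11 were lower with a 2012 library left out. Hsp90aa1, the inducible HSP90, stood at 80.98 and 81.4 CPM against 167, 145 and 110.03 (-0.94, SE 0.10) and Hsph1, an HSP70 partner chosen after its values were seen, at 65.4 and 59.4 against 104, 93.3 and 82.8 (-0.66, SE 0.11). Dnajb1, an inducible HSP40 chosen likewise, stood at 59.01 and 39.2 CPM against 216, 93.6 and 83.4, where negative 1 was the high one (-1.65, and -0.93 without it). Immediate early genes, which respond within minutes, gave 2 higher and 2 lower of 22 (0 to 4 higher with 1 of the 2012 libraries left out, 0 higher without CD103 low 1 or CD103 low 2, 1 higher after the length correction, 1 lower without CpG 2 or negative 1, 8 lower without negative 2, 1 lower against all negatives). Jun stood at 363 and 415 CPM against 1318, 939 and 522 (-1.54, SE 0.24), Klf2 at 276 and 266 against 831, 348 and 205 and Fos, named after its values were seen, at 2489.9 and 2306 against 4023, 2326 and 1239. Negative 1 was the highest library in all 3, and Klf2 lost its call without it (-0.36 in place of -1.12), without either CpG library (-1.15 and -1.10) and against all negatives. Only Jun had no overlap, and Fos was not called. Over all genes, 21 genes called lower had more than 2-fold more CPM in negative 1 than in either other CD103 negative library, while 0 had that in negative 2 and 8 in negative 3.

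Genes that replicate DNA and build ribosomes were lower where called. Of 53 replication and mitosis genes 17 were called lower and 0 higher, beside 11.8% of all genes called lower (median -0.43, 1 higher without CpG 2, 10 lower without negative 2). Myb, a factor of proliferating progenitors, fell from 18.9, 20.9 and 31.1 to 6.21 and 6.05 CPM (-1.69, SE 0.19). Ribosome biogenesis had 17 of 38 members called lower and 0 higher (median -0.44, 1 higher without negative 2, 9 lower without CpG 2 or negative 2, 10 lower against all negatives). Nop58, a core protein of small nucleolar particles, fell from 119, 144 and 107 to 77.9 and 70.4 (-0.82, SE 0.13) and Ncl, nucleolin, from 709, 791 and 573 to 506 and 471 (-0.62, SE 0.10). In both genes negative 3 lay nearest to the CpG libraries. Translation factors gave 12 lower and 1 higher of 30 (2 higher without CpG 2, 0 higher against all negatives, 2 higher after the length correction). Eef1g, an elongation factor subunit, stood at 81.6 and 84.9 CPM against 135, 161 and 114 (-0.83, SE 0.11) and Eef2k, the kinase that slows elongation, at 16.6 and 13.7 against 34.9, 31.9 and 33.6 (-1.14, SE 0.17).

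Ribosomal protein genes are short, with a median length of 729.5 bases in the list, and moved in the direction of the shortest class of all genes. Of 76 cytoplasmic ribosomal protein genes 42 were called lower and 0 higher (median -0.50). Beside them stand 11.8% of all genes called lower and 468 of the 2716 genes in the shortest class. After the length correction 34 were lower and 4 higher (median -0.29), and against all negatives 25 were lower. Rplp1, a stalk protein, stood at 231 and 220.1 CPM against 442, 434 and 467 (-0.96, SE 0.10) and Rpsa at 173 and 188 against 337, 303 and 275 (-0.83, SE 0.10). Mitochondrial ribosomal proteins had 15 of 75 members lower (20%, median -0.27), a share near that of the shortest class. The count was 6 after the length correction, 2 against all negatives and 7 without either CD103 low library. It was also smaller whenever 1 of the 2012 libraries was left out.

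Metabolic lists held changes in both directions. Of 34 genes of cholesterol synthesis and its control 10 were called lower and 4 higher, beside 11.8% and 14.5% of all genes (median -0.25, 1 higher without CpG 2 or negative 2, 2 higher without CD103 low 1, CD103 low 2 or negative 1, 0 higher against all negatives, 4 to 6 lower with 1 of the 2012 libraries left out). Cyp51, a demethylase of the pathway, fell from 71.8, 62.5 and 73.4 to 33.1 and 39.2 CPM (-0.89, SE 0.13). Glycolysis gave 7 higher and 7 lower of 34 (2 to 4 lower with 1 of the 2012 libraries left out, 4 lower without CD103 low 1 or CD103 low 2). Hif1a, the hypoxia factor, rose from 107, 117 and 127 to 194 and 153 (0.63, SE 0.12) and Aldoa, aldolase A, from 319, 305 and 278 to 511 and 447 (0.62, SE 0.09). Genes of amino acid and nucleotide handling gave 8 higher and 8 lower of 37 (4 lower without negative 1). Slc7a8, a carrier of neutral amino acids, rose from 29.6, 34.3 and 26.4 to 91.4 and 94.1 CPM (1.54, SE 0.13), whereas Adora2a, the adenosine receptor that restrains inflammation, fell from 22.4, 21.8 and 23.4 to 5.55 and 7.4 (-1.77, SE 0.20). The iron, haem and antioxidant list gave 6 higher and 6 lower of 33 (3 lower against all negatives). Slc11a1, the phagosomal iron pump NRAMP1, rose from 171, 169 and 188 to 277 and 300.3 (0.76, SE 0.09) and catalase, Cat, fell from 435, 399 and 416 to 269.6 and 262 (-0.65, SE 0.09). Blvrb, which acts after haem oxygenase in haem breakdown, rose from 4.61, 6.47 and 6.17 to 17.97 and 17.3 CPM (1.66, SE 0.24).

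Trafficking, lipid and survival genes held smaller sets of changes. Of 41 autophagy and trafficking genes 4 were called higher and 2 lower (1 lower without CpG 2), beside 26.3% of all genes called. Stx3, a SNARE of exocytosis, rose from 27.9, 30.6 and 27.03 to 72.5 and 60.96 CPM (1.19, SE 0.13) and Rab37, a GTPase of secretory granules, from 2.85, 3.88 and 1.49 to 17.3 and 14.3 (2.22, SE 0.27), while Sort1, a sorting receptor between Golgi and lysosome, fell from 95.5, 89.9 and 122 to 46.8 and 49.5 (-0.94, SE 0.12). Among 36 fatty acid and eicosanoid genes 4 were called higher and 4 lower, 22.2% beside 26.3% of all genes (2 higher without CD103 low 1, CD103 low 2, CpG 2 or negative 2). Hpgd, which inactivates prostaglandins, fell from 20.6, 16.4 and 23.6 to 4.66 and 5.83 CPM (-1.81, SE 0.23), and Cpt1a, which brings fatty acids into mitochondria, rose from 142, 126 and 123 to 219.6 and 187 (0.60, SE 0.10). Syvn1, a ubiquitin ligase of the endoplasmic reticulum, rose from 71.4, 65.3 and 83.6 to 114 and 117 (0.76, SE 0.10). Its folding list had 3 higher and 6 lower calls of 32, 28.1% beside 26.3% of all genes (1 higher without CpG 2 or negative 1, 5 higher without negative 2, 1 lower without CpG 2 or negative 2). Bcl2a1b, an inhibitor of apoptosis with near-identical copies, stood at 67.7 and 58.9 CPM against 129, 94.4 and 88.3 (-0.82, SE 0.15). Satb1, a chromatin organiser, fell from 48.5, 41.8 and 48.5 to 20.4 and 25.1 (-0.99, SE 0.15), and Rgs18, which damps G protein signals, from 46.8, 44.6 and 40.4 to 15.3 and 13.4 (-1.67, SE 0.15). In each of these 9 genes no CpG value overlapped a negative value.

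Transcripts of mitochondrial DNA gave calls in which 1 library stood far from the rest. They were chosen after their values were seen. COX2, a subunit of cytochrome oxidase, stood at 27.5 and 19.05 CPM against 139, 34.7 and 22.99, COX3 at 18.4 and 12.3 against 113, 20.9 and 9.79 and ATP6, of the ATP synthase, at 15.1 and 14.6 against 124, 26.1 and 11.3. Negative 1 was several-fold above every other library in each. Their log2 fold changes of -1.90, -2.11 and -2.33 became -0.58, -0.44 and -0.82 without that library and -2.58, -2.87 and -3.06 without negative 2. The calls of COX2 and COX3 were lost without negative 1, and those of all 3 genes without either CpG library (-2.19 and -1.67 for COX2, -2.43 and -1.86 for COX3, -2.36 and -2.32 for ATP6) and against all negatives, and that of COX3 also without either CD103 low library. The abundant COX1 stood at 10635 and 9832 CPM against 11152, 10976 and 10799 and was not called (95% interval -0.26 to 0.038).

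Several RNAs, long nuclear ones among them, stood lower in negative 1 and negative 2 than in negative 3 and the CpG libraries. Malat1, an abundant RNA of nuclear speckles, chosen like the next 4 after its values were seen, stood at 1768 and 1967 CPM against 1057, 1044 and 2077, Neat1, the scaffold of paraspeckles, at 47.5 and 67.9 against 23.3, 42.5 and 93.01, and Xist, the RNA of the inactive X chromosome, at 365 and 590.1 against 158, 219 and 629. All 3 were called higher in the date-matched contrast (0.83, 0.81 and 1.34), yet negative 3 lay above both CpG libraries and none was called against all negatives (0.42, 0.12 and 0.51). The call of Neat1 was also lost without negative 1 (0.44), CpG 2 (0.52) or either CD103 low library. Leng8 followed the same order at 105 and 188 CPM against 38.6, 38.4 and 140.04, with negative 3 between the CpG libraries, and so did Gabbr1, a GABA receptor chain, at 31.3 and 72.2 against 10.8, 7.33 and 48.3 (2.51, and 1.78 without CpG 2). Neither was called against all negatives. What set negative 1 and negative 2 apart from the other libraries in these RNAs was not tested.

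**Figure D5:**
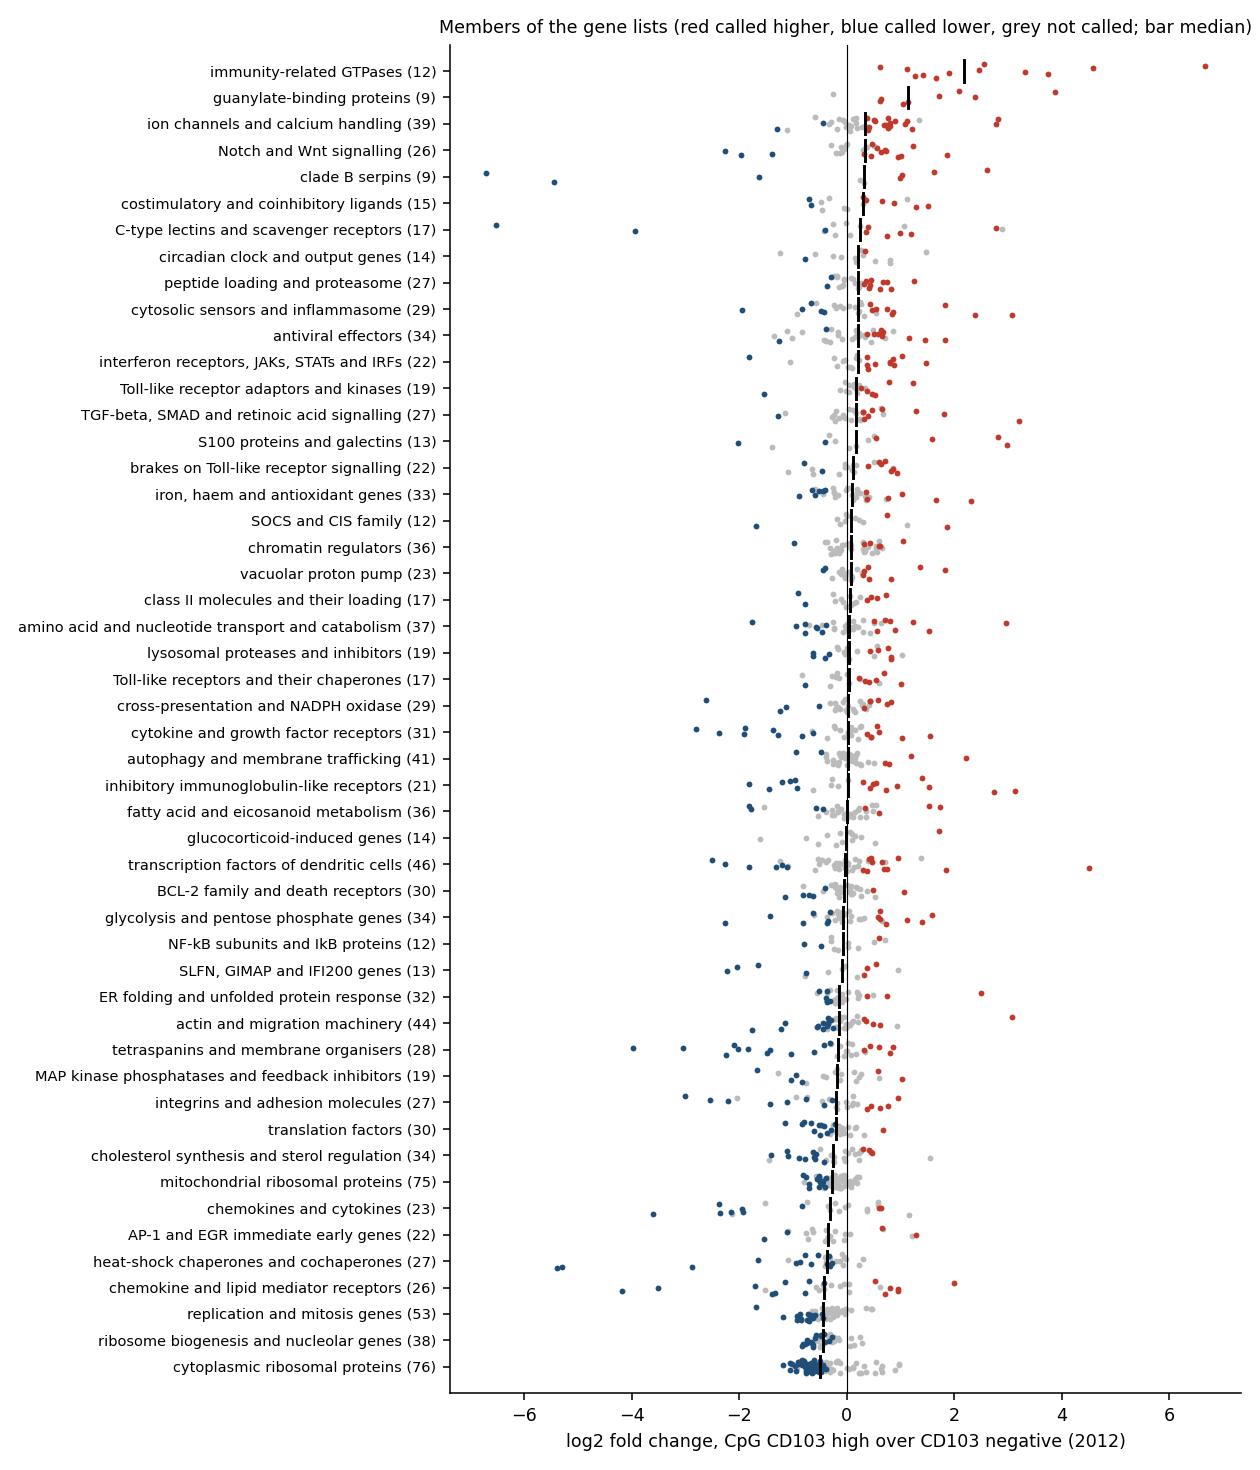
Log2 fold change (horizontal axis) of every tested member of 50 gene lists, each point 1 gene, with the number tested in brackets and a black bar at the list's median. Immunity-related GTPases lie at the top with a median of 2.17 and cytoplasmic ribosomal proteins at the bottom with -0.50.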

How the data were processed

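Messenger RNA was profiled in 7 libraries of CD8 dendritic cells, grouped by their labels. The deposited values are whole-number read counts per gene, made by the authors with CASAVA, Subread 1.4.6, featureCounts and the mm10 build, per the submitters' processing notes. Strand and multi-mapping settings were not given in the sources used here. Of 27179 genes, 25275 (93.0%) were paired with a symbol, and the others held 0.533% of counts. A further 7 columns of a table of the whole series matched no label and were not used.

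Counts were fitted with edgeR 4.0.16 (R 4.3.3), by group and date over all 7 libraries, after its expression filter and TMM scaling, with 3 residual degrees of freedom. A second fit used all CD103 negative libraries and no date term. Calls required a Benjamini-Hochberg adjusted p under 0.05, and the scripts were tested on simulated data. CPM used TMM library sizes, and intervals are at 95% confidence. Replicates of a group differed beyond sampling noise.

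Genes named were the sorted markers, the 14 largest rises and falls among called genes with average log2 CPM of at least 4 and no overlap, the 10 largest changes in CPM, genes with at most 3 counts in 1 group and at least 30 in the other, up to 4 called members of each list and the 6 most abundant genes that differed least. Others are said to be chosen after their values were seen. Members and lists were chosen with earlier results of these data known. Values of Tgtp1, Tgtp2, Lilrb4a, Hspa1a, Hspa1b and of GBP, Bcl2a1 and ribosomal protein genes are uncertain, since reads can fall on near-identical copies. Alternatives were DESeq2 1.42.0, limma 3.58.1 voom, other scaling and filters, a test against a 1.5-fold change, a replicate block, each library left out and, added after seeing the data, a correction for GC content and length, which covered 10349 genes (95.3%). Counts of list members under each alternative cover the members tested in the main analysis.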

Additional observations from a re-analysis of the deposited data

How the results depend on the processing

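The 2860 date-matched calls numbered 1459 by DESeq2, all of them among the 2860, and 518 against a change of 1.5-fold, and without 1 library between 1738 (without CD103 negative replicate 1) and 2861 (without CD103 negative replicate 3). The 1589 calls against all CD103 negative libraries numbered 335 against a change of 1.5-fold and between 514 (without CpG CD103 high replicate 1) and 2861 without 1 library. The replicate block replaced the date term, so it was the same fit for both contrasts, with 3013 calls. Replicate numbers were not paired by the labels, and deviations of same-numbered CpG CD103 high and CD103 negative libraries correlated at 0.168 across genes. RLE scaling, limma voom, no filter, a stricter filter, CD103 low left out and the GC and length correction kept both totals within 1.5 times. Over the 239 genes named by rule, 51 others and 17 alternatives, log2 fold changes lost their call 386 times and gained one 10 times. Signs changed 43 times in 19 genes, 2 of them with a call before or after. Both of these came with the GC and length correction, to 0.047 for ND1 (main value -0.28, adjusted p over the alternatives from 0.00491 to 1) and to 0.22 for CYTB (main value -0.05), and the cause was not tested. RLE scaling lost none of these calls. Neither did the replicate block nor leaving out CD103 negative replicate 3. In these fits replicate 3 has a term of its own or is absent, as the date term already sets it apart in the main fit. They could therefore not show a dependence on it. With 2 libraries against 2, low genes limit the precision: of 4 equal abundance classes, 17.3% of genes were called in the lowest and 38.0% in the highest.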
